A study of Mus musculus with 4 samples.

Results

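The Bcl2 family decides whether the outer membrane of the mitochondrion stays closed. Survival members (Bcl2, Bcl2l1, Bcl2l2 and Mcl1) bind and hold back the pore formers Bax and Bak1. BH3-only members (among them Bcl2l11, Bad and Bid) relay death signals by binding survival members, and some also engage the pore formers. Once the membrane opens, cytochrome c escapes and activates caspases. In the hippocampus these genes are known for setting the sensitivity of pyramidal neurons to ischaemia, seizures and loss of trophic support.

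Here 10 genes of the family were followed by name on expression arrays, taking every probe set whose annotation gives that symbol alone. Of the 10 genes, 9 had such a probe set and Bax is not analysed here. They were represented by 15 probe sets of 12422 on the array, controls left out. RNA came from area CA1 of the hippocampus of young C57BL/6J males, an inbred strain, that had only been handled. Each array holds 1 control sample, taken 1, 2, 4 or 6 hours after other mice of the experiment had their last shock, and no shocked sample is analysed here. There was 1 group of 4 samples, and whether 1 mouse or several gave each sample is not stated in the labels. Time, animal, dissection and array therefore cannot be told apart, and the p-values measure only the spread between these 4 samples. Values are deposited signals on a linear scale, given in the order 1, 2, 4 and 6 hours. Differences and SDs are on the log2 scale after quantile normalization. The number of arrays limits the precision. Signals of different probe sets were not set against each other, since each probe set has its own brightness.

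In these control samples 12 of the 15 probe sets, covering all 9 genes, were bright enough to test, and no Bcl2 family probe set passed the test for a change with time. A range of 2-fold or more over the 4 samples was found in 2 of the 12, a share near the 17.9% of all tested probe sets. Both were of Bcl2l11, known as Bim (6.30-fold and 2.20-fold), and they were low in different samples. Next came Bcl2 98869_g_at, at 1.99-fold after normalization and 2.04-fold on the values as deposited, where 3 of 12 reached 2-fold. Most survival probe sets and both Bad probe sets were highest in the 2-hour sample, by margins that did not pass the test.

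The tissue was checked against its markers. Of 11 genes listed for CA1 pyramidal neurons 7 had a probe set and 6 passed the filter, among them Wfs1 with 2292, 2274, 2797 and 1964. Camk2a encodes an abundant kinase of these neurons, and the brighter of its 2 probe sets stayed at 29.7 to 94.9, below the filter. Of the 5 dentate gyrus markers on the array 3 were tested (Calb1 with 1545 to 1755, Lct with 282 to 405 and Dsp with 175 to 330), and Prox1, which marks dentate granule neurons, stayed below the filter with 25.1 to 59.8. Among 5 genes listed for CA3 and CA2 on the array 2 were tested, Rgs14 with 5017 to 5790 and Bok with 645 to 845. The 1-hour sample stood apart in RNA and tissue controls. The Gapdh signal from the 3' end was 4.52 times that from the 5' end there, against 1.18 to 1.37 in the other samples. The same ratio for beta-actin was 2.34 there and 1.76 to 2.00 in the others. The 6 choroid plexus markers on the array summed to 3464 in that sample and to 1062 to 1319 in the others, and most of the difference was transthyretin (Ttr), with 2246 against 143 to 353. Without Ttr the sums were 1218 and 906 to 967.

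Bcl2 is the founding survival gene of the family. The probe set 98869_g_at had signals of 127, 258, 218 and 247. It was lowest in the 1-hour sample, at a difference of -0.91 from the mean of the other 3 samples (SD of those 3, 0.11), and the 2-, 4- and 6-hour samples lay within 0.20 of each other. The adjusted p of that difference in limma was 0.23. The probe set 98870_at of the same gene had 519, 456, 518 and 581. It showed no low value at 1 hour, where it lay 0.06 above the other 3 (SD 0.18), and its lowest value was at 2 hours. A further Bcl2 probe set, 98868_at, had 9.6, 33.2, 24.7 and 35.0. After normalization it was under the floor of 35.1 used for low values in 3 samples and just above it at 6 hours, and was not tested.

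Bcl2l1 encodes Bcl-xL, the main survival protein of mature neurons. Its probe set 99027_at had 1557, 1918, 1862 and 1500 (SD 0.19 over the 4 samples). The 2- and 4-hour samples were the higher pair, and the full range was 1.31-fold. A second Bcl2l1 probe set, 99026_at, was under the floor in all 4 samples, with 12.9 to 28.3. Bcl2l2, which encodes Bcl-w, had 1057, 1388, 1045 and 834 (SD 0.31). It was highest at 2 hours, 0.52 above the other 3 (SD 0.20), and lowest at 6 hours, at -0.48 from them (SD 0.23). Mcl1, whose protein turns over rapidly, had 368, 531, 372 and 452 (SD 0.23). Its 2-hour value lay 0.39 above the other 3 (SD 0.15), and the 1- and 4-hour values were the low pair.

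Taken by role, 4 of 5 tested survival probe sets lay above the other samples at 2 hours, with a median difference of 0.39 against 0.01 over all 7453 tested probe sets. The exception was Bcl2 98870_at. Without the 1-hour sample 4 of 5 were still above, with a median of 0.24. Of 6 tested BH3-only probe sets, with Bnip3 counted among them, 4 also lay above the other samples at 2 hours, with a median of 0.15. How many of all tested probe sets lay above was not counted. Taken with 1 probe set per gene, 3 of 4 survival genes lay above (median 0.33), as did 6 of 8 tested death receptor genes (median 0.53). Over the whole family 6 of 12 tested probe sets had their highest value at 2 hours, where 21% of all tested probe sets did. They were Bcl2 98869_g_at, Bcl2l1, Bcl2l2, Mcl1 and both Bad probe sets. The number was 5 with arrays scaled to equal medians, 6 without the 1- or the 4-hour sample, and 8 without the 6-hour sample. With a sample left out, fewer arrays compete for the highest value. The share over all tested probe sets was not counted there, so 8 of 12 cannot be set against 21%. None of these differences passed the test. In the limma fit of the 2-hour sample against the others the adjusted p was 0.9999 for each member, and 0 of 7453 probe sets (0%) were called, with 197 at an unadjusted p under 0.05. Each such fit takes its spread from the other 3 arrays, moderated by eBayes toward that of probe sets of like brightness. The SDs printed beside the differences are not moderated. The fit assumes that the 1 array varies as the other 3 do.

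**Figure D1:**
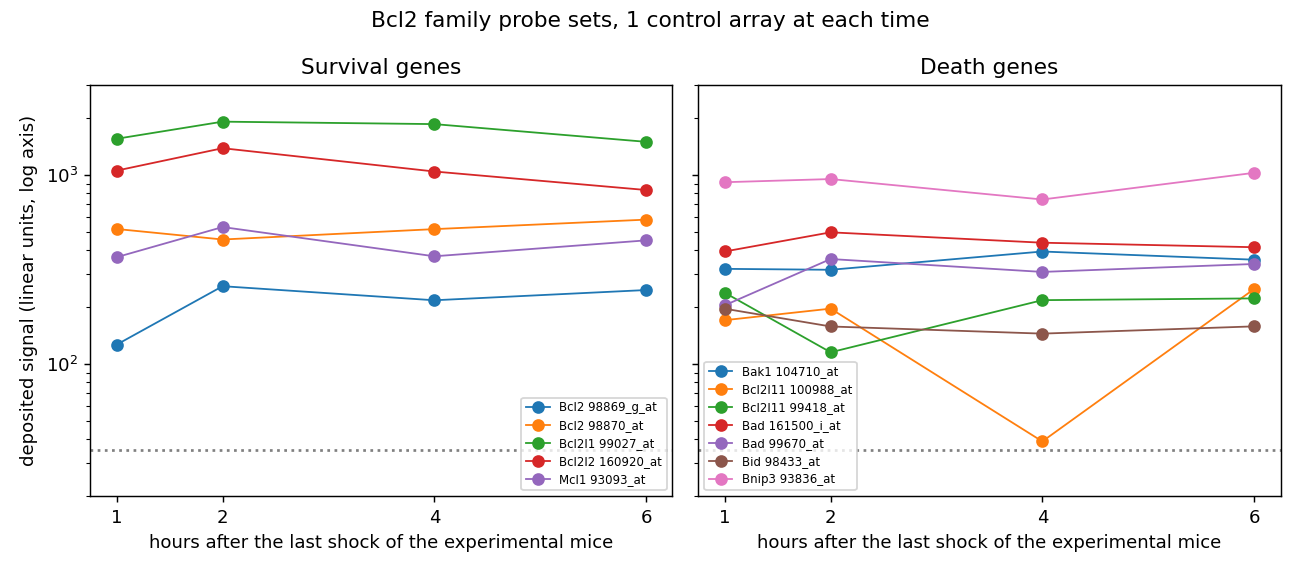
Deposited signal (log axis) of the 12 tested Bcl2 family probe sets at 1, 2, 4 and 6 hours, survival genes on the left and death genes on the right; each point is 1 array, lines join points of 1 probe set, and the dotted line is the floor of 35.1. Heights of different probe sets are not comparable. Bcl2l11 100988_at stands at 39.0 in the 4-hour sample, and Bcl2 98869_g_at is lowest at 1 hour with 127.

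Bak1 encodes Bak, which together with Bax forms the pore in the mitochondrial membrane. It had 319, 316, 394 and 357 (SD 0.16). Its highest value, at 4 hours, lay 0.28 above the other 3 (SD 0.10), with an adjusted p of 0.9999 in limma. With 1 of the 2 pore formers measured, no Bcl2 to Bax ratio is given.

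Bcl2l11 encodes Bim, a BH3-only protein that binds every survival member and is induced in neurons deprived of trophic factors. Its gene is a known target of FOXO transcription factors. The stretch below lies 181 to 250 bases before the first of its 2 listed start sites. It is shown because the FOXO genes are among the upstream genes described further on, and the capitals mark a match to the FOXO core TGTTTAC on the opposite strand (RefSeq, GRCm38.p6, chr2:128125788-128125857, plus strand).
Bcl2l11: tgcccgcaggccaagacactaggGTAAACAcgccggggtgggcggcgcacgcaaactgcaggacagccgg
Searched on both strands, TGTTTAC was found in 1 of the 14 windows of 300 bases around start sites of the family (Bax included), and in 3.65% of all 32851 such windows. No binding was measured here, and a match is a description of letters only.

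The Bcl2l11 probe set 100988_at had signals of 171, 197, 39.0 and 250. Its 4-hour value stood at -2.36 from the mean of the other 3 samples (SD 0.27), close to the floor. At 39.0 it lies where the size depends on that floor: with the floor at the 40th percentile the difference was -0.84 and the range of this probe set 2.19-fold. Of all 7453 tested probe sets 2 lay further below at 4 hours. The range was 2.66 on the log2 scale, wider than 99.2% of tested probe sets. The probe set 99418_at had 239, 116, 218 and 223. Here the 2-hour sample was the low one, at -1.04 from the other 3 (SD 0.08), and the 4-hour sample was level with the 1- and 6-hour samples. In limma the adjusted p was 0.9999 for both differences. A further probe set, 99419_g_at, was under the floor in all samples, with 4.6 to 31.0.

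The tested Bcl2l11 probe sets thus named different samples as low. Their centred log2 profiles lay 2.46 apart (Euclidean distance over the 4 samples), and 99.3% of the 1213 pairs of tested probe sets of 1 gene lay closer together (median 0.66). With the floor raised to the 40th percentile the distance was 1.30. The other genes with a pair of tested probe sets were Bcl2, 0.91 apart, and Bad, 0.49 apart. In both of these the largest disagreement was in the 1-hour sample, as it was in 41.3% of all pairs. The Gapdh ratio was 4.52 in that sample, and its part in the disagreement was not tested. Which part of the transcript each probe set reads is not used here.

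**Figure D2:**
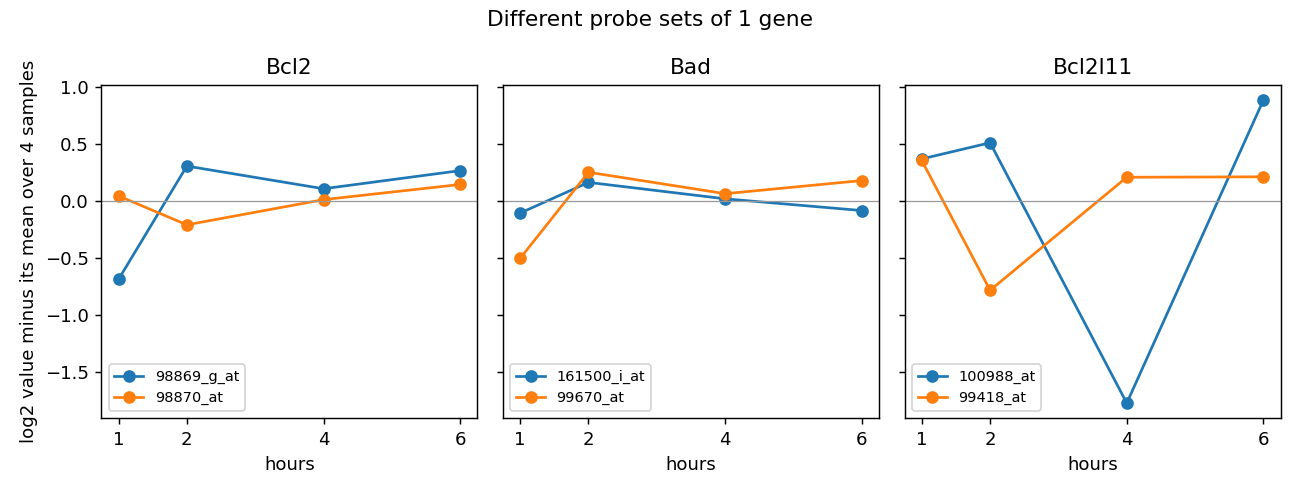
Log2 value of each tested probe set minus its own mean over the 4 samples, against hours, for the 3 genes with a pair of tested probe sets; each point is 1 array. The Bcl2l11 probe sets dip at different times (100988_at at 4 hours, 99418_at at 2 hours), and those of Bcl2 and Bad differ most at 1 hour.

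The tested probe sets most like each Bcl2l11 profile were found by the same distance, over 4 samples. Nearest to 100988_at were Tuft1, at a distance of 0.16, with 206, 260, 51.9 and 294, and Vamp8, a vesicle SNARE, at 0.44, with 177, 138, 35.5 and 195. Nearest to 99418_at were Phkg1, a subunit of phosphorylase kinase, at 0.15, with 160, 66.8, 136 and 129, and Eif2s3y, a Y-linked translation factor, at 0.15, with 163, 90.4, 158 and 156. Among cell type markers Pecam1, an adhesion molecule of endothelium, was also low at 4 hours, with 178, 160, 30.9 and 155. Its 4-hour value was under the floor of 35.1 and was set to it, and the Vamp8 value of 35.5 lay close to that floor. The 9 endothelial markers on the array summed to 2786, 2786, 2361 and 1862, lowest at 6 hours, and 3 of 6 tested ones lay above the other samples at 4 hours. Their part in the Bcl2l11 value was not tested. In bulk tissue, fewer cells of a type and less RNA per cell cannot be told apart.

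Bad is the BH3-only protein that survival kinases switch off by phosphorylation. The probe set 99670_at had 205, 360, 308 and 339. It was lowest in the 1-hour sample, at -0.67 from the other 3 (SD 0.10, adjusted p 0.28 in limma). Without that sample the range was 0.19. The probe set 161500_i_at had 394, 498, 439 and 416, the smallest range of the tested probe sets of the family (0.27), and its 1-hour value lay at -0.14 from the other 3 (SD 0.13).

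Bid links death receptors to mitochondria once caspase-8 has cut it. It had 196, 158, 145 and 158. The 1-hour sample was the high one, 0.39 above the other 3 (SD 0.05), with an adjusted p of 0.65. Without that sample the range was 0.09. The low Bcl2 98869_g_at and Bad 99670_at values and the high Bid value all lie in the sample with the Gapdh ratio of 4.52 and the Ttr signal of 2246, and the part of either in these values was not tested. In that sample limma called 175 probe sets (2.35%), and 0 of the 12 Bcl2 family probe sets. Of the 12, 6 lay above and 6 below the other samples, with a median difference of -0.05 against 0.05 over all tested probe sets.

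Bnip3 is a mitochondrial protein best known as a hypoxia-induced trigger of mitophagy. The stretch below lies 63 to 148 bases before its start site. It is shown because genes of the hypoxia response are described further on, and the capitals mark CACGTG, in which the core ACGTG of the hypoxia response element is read once on each strand, the readings overlapping (RefSeq, GRCm38.p6, chr7:138909569-138909654, minus strand).
Bnip3: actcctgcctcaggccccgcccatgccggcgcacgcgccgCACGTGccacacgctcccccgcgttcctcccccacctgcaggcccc
Searched on both strands, ACGTG was found in 19.6% of all windows, and in the family in the windows of Bnip3 and Bax, 2 of 14. The Bnip3 signals were 917, 953, 743 and 1028 (SD 0.19). The 4-hour sample was the low one, at -0.36 from the other 3 (SD 0.08), with an adjusted p of 0.9999.

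Across the family, the spread was compared with that of the array. The median SD of the 12 tested probe sets was 0.21 and the median range 0.46, against 0.25 and 0.56 over all tested probe sets. A range of 1 log2 unit or more was found in 2 of 12, both Bcl2l11, against 17.9% of all tested probe sets, and in 3 of 12 on the values as deposited. Over the 2-, 4- and 6-hour samples alone it was 1 of 12 (Bcl2l11 100988_at), against 9.06%. The median range was then 0.38 in the family and 0.37 over all.

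**Figure D3:**
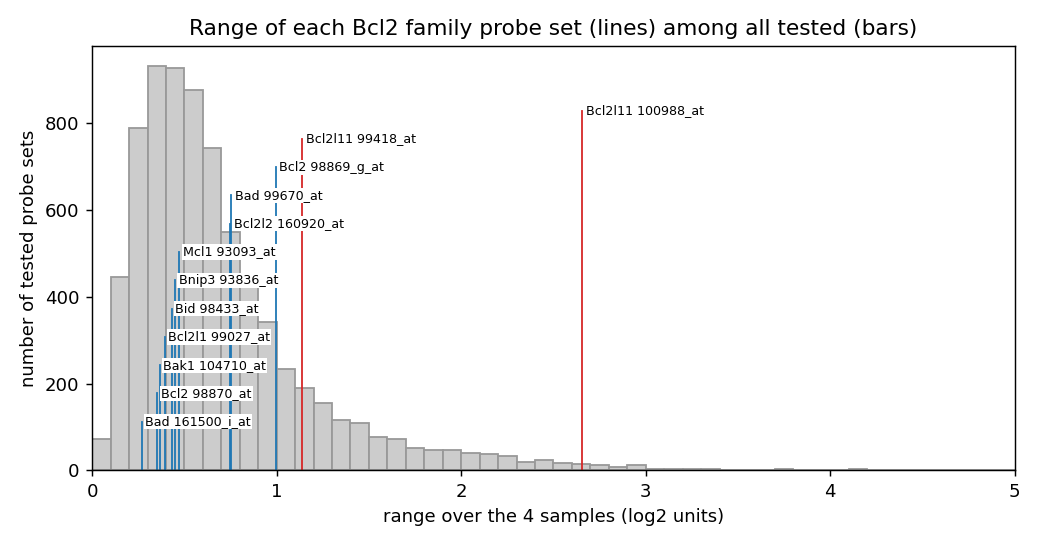
Range over the 4 samples in log2 units of each tested Bcl2 family probe set (vertical lines; Bcl2l11 red, others blue; line heights only separate the labels) on the distribution for all 7453 tested probe sets (bars, number per bin). The family lies between 0.27 and 2.66, and the 2 Bcl2l11 probe sets are past 1, with Bcl2 98869_g_at at 0.99.

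Time was fitted as a linear term with limma, the coefficient being the log2 change from 1 to 6 hours. No member was called as rising or falling. Of the 12 probe sets, 7 had a positive and 5 a negative coefficient, with a median of 0.04 against -0.02 over all tested. The largest coefficients were 0.67 ± 0.49 (SE) for Bcl2 98869_g_at, with an adjusted p of 0.79, and -0.51 ± 0.28 for Bcl2l2, with an adjusted p of 0.75. Without the 1-hour sample the Bcl2 coefficient was -0.05. Among all tested, 0 of 7453 probe sets (0%) had an adjusted p under 0.05, and 465 (6.24%) an unadjusted p under 0.05, of which 0 were members.

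The genes around the family in the death pathway were read from 7 lists of 127 genes, of which 97 had a probe set and 69 were tested. Of the 69, 0 were called by limma as rising and 0 as falling with time, with a smallest adjusted p of 0.74. At an unadjusted p under 0.05 stood 4 of 69, a share near the 6.24% of all tested probe sets. They were Tradd, an adaptor of death receptors, Ccng1, a p53 target, Akt2, a survival kinase, and Pim3, another such kinase. Pim3 was named after its value was seen. A range of 1 log2 unit or more was found in 8 of 69 (11.6%), against 17.9% of all tested probe sets. Without the 1-hour sample it was found in 3 of 69, against 9.06% of all tested. Each of the 69 genes entered by its brightest probe set, while the shares are over all 7453 tested probe sets, so they were not counted alike.

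Among other Bcl2 relatives and binding partners 12 of 24 listed genes had a probe set and 7 were tested. Bcap31, a partner of Bcl2 in the endoplasmic reticulum, had 417, 783, 567 and 890, lowest at 1 hour. Bnip1 had 742, 495, 796 and 707, and Bcl2l13 had 461, 628, 721 and 664. Bnip1 was low at 2 hours, and Bcl2l13 at 1 hour. The BH3-only genes Bik and Hrk stayed below the filter, at 37.7 to 99.3 and 74.6 to 120.

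Of 8 caspases with a probe set, 2 were bright enough to test. Casp9, the initiator that the apoptosome activates, had 284, 330, 307 and 308, and Casp2 had 264, 296, 247 and 313. Neither ranged over 0.32. Casp8, which cuts Bid, stayed below the filter at 9.2 to 106. Among 13 tested genes of mitochondrial release and DNA fragmentation, 0 had a range of 1 log2 unit, against 17.9% of all tested probe sets. The widest were Dffa, the inhibitor of the caspase-activated nuclease, with 319, 543, 277 and 363, Cideb, with 113, 134, 194 and 163, and Apaf1, the scaffold of the apoptosome, with 183, 261, 223 and 152. Dffa and Apaf1 were highest in the 2-hour sample. The inhibitors of apoptosis Birc2 and Birc6 had 272, 406, 309 and 385, and 433, 269, 313 and 312.

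Among 8 tested death receptor genes Tradd had the widest range, with 214, 314, 1654 and 966. Traf2, which recruits inhibitors of apoptosis to these receptors, had 331, 684, 547 and 393, and the receptor Tnfrsf1a had 224, 252, 143 and 132. Fas and its ligand Fasl were under the floor in all samples. The p53 list had 8 tested genes. Gadd45a, a DNA damage gene, had 192, 189, 213 and 66.4, and Cdkn1a, which halts the cell cycle, 144, 166, 211 and 96.0, both lowest at 6 hours. Ccng1 had 450, 364, 280 and 256.

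The kinases, phosphatases and transcription factors that act on Bad and Bcl2l11 were the best covered list, with 20 tested of 21 on the array. Of these, 3 ranged over 1 log2 unit, a share near the 17.9% of all tested probe sets. Akt1, the kinase that phosphorylates Bad, had 636, 1273, 1382 and 1113, at -0.94 from the other 3 samples at 1 hour (SD 0.16, adjusted p 0.055 in limma). Akt2 had 530, 673, 1121 and 907, and Mapk9, a stress kinase, 129, 398, 217 and 409. All 3 were lowest at 1 hour, as were 29.2% of all tested probe sets. The Gapdh ratio was 4.52 in that sample, and its part in these values was not tested. Without the 1-hour sample 0 of the 20 had a range of 1 log2 unit, against 9.06% of all tested probe sets. Foxo3, an activator of Bcl2l11, had 622, 534, 572 and 635, with a range of 0.27 and its lowest signal at 2 hours. Of the hypoxia list that goes with Bnip3, 9 of 11 genes on the array were tested. A range of 1 log2 unit was found in 0 of the 9, against 17.9% of all tested probe sets. Hif1a, the oxygen-regulated factor, had 2538, 2174, 2294 and 2293, and Slc2a1, a glucose transporter, had the widest range, with 302, 439, 241 and 261. Pgk1, a glycolytic enzyme, had 5423, 5748, 4389 and 4980. It was lowest at 4 hours, as were Bnip3 and 24% of all tested probe sets. Epas1 had 185, 228, 232 and 159, highest at 4 hours.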

How the data were processed

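The data are 4 arrays of 1 colour, 1 for each handled control sample. From the deposited values themselves, the authors' table holds a linear intensity for each probe set, scaled to a trimmed mean (2% off each end) of 500.3 per array. For the array software and scan settings the sources used here give nothing, and detection calls were not used. Of 12422 probe sets, after leaving out 66 controls, 10833 had 1 symbol, 396 several and 1193 none. Of those with 1 symbol 10817 matched the GRCm38.p6 RefSeq gene table by identifier.

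Arrays were quantile normalized, values set to a floor at the 20th percentile (35.1) and logged. Probe sets with a mean at or above the 40th percentile (6.71 on the log2 scale) were tested, 7453 in all. Time, and each sample against the other 3, were fitted with limma 3.58.1 in R 4.3.3 (eBayes with an intensity trend, 2 residual degrees of freedom, two-sided p, Benjamini-Hochberg over all tested). Each listed gene entered by its brightest probe set. Named genes were all members, the 3 of each list with the widest range, and the 2 probe sets nearest to each member with a range of 1 or more; others (markers, Casp8, Bik, Hrk, Fas, Fasl, Foxo3, Hif1a) were chosen after their values were seen. The members and lists were chosen with earlier results of these data known. Fits were tested on simulated data. Alternatives were other scalings, floors, filters, variance priors and time scales, and leaving out each sample. Figures used matplotlib 3.10.9 in Python 3.11.15.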

Additional observations from a re-analysis of the deposited data

Results flagged for a closer look

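In the Bcl2l11 probe set 99418_at the 2-hour sample lay far from the others. Its signal of 116 stood against 218 to 239, and the gap to the nearest sample was 0.871 of the whole log2 range, above Dixon's 95% critical value for 4 samples. Chance gives such a gap in about 1 in 20 groups, and 6.75% of all tested probe sets showed one, so 1 of 12 Bcl2 family probe sets is close to that share.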

How the results depend on the processing

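No Bcl2 family probe set was called by limma for time or for any sample against the others, under any of the alternatives run. Without a replicate the number of all probe sets called for time ranged from 0 to 5, and for the 4-hour sample from 0 to 1. For the 1-hour sample, 175 called became 272 on values as deposited, 3 with the floor at the 40th percentile, 365 without the filter on low values, 0 with eBayes without an intensity trend, and 60 to 244 when a replicate was left out. Without the filter 217, 227 and 211 were called for the 2-, 4- and 6-hour samples, and 3433 in place of 1331 had a range of 1 log2 unit. That range was found in 675 without the 1-hour sample (675 to 1044 over the samples left out), and in 1 to 2 Bcl2 family probe sets when a replicate was left out. On values as deposited it was found in 3, Bcl2 98869_g_at joining the 2 of Bcl2l11. The trend of Bcl2 98869_g_at was -0.05 without the 1-hour sample, and up to 1.06 without another. The distance between the Bcl2l11 probe sets came to 1.30 under a floor at the 40th percentile, where the low 4-hour value is set to that floor and its difference from the other samples was -0.84. The cause of the other moves was not tested. Without the filter the fits also take in probe sets at the floor in 3 samples, where the SD of those 3 is 0. How many of the calls made without the filter were of that kind was not counted. No paired analysis was possible because there is 1 group. With 1 array at each time, signals near the floor limit what can be said of Bcl2 98868_at, Bcl2l1 99026_at and Bcl2l11 99419_g_at.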
